A study of Mus musculus with 1 sample.

Results

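The factors that switch cells between an epithelial and a mesenchymal state were examined in epithelial cells of the ovarian surface. The RNA came from wild-type mice that were 3 months old and was measured on 1 Affymetrix mouse array. The cells form a thin layer over the ovary and are related to mesothelium. The labels do not say how the cells were obtained or how many mice contributed. The study compared several mouse genotypes, and the wild-type array was analysed here, so no genotypes were compared and there is no replicate error for any value. The factors were 10 named genes, taken from the array as every probe set paired with no other gene. They had 22 of 34945 probe sets and were 10 of 18193 genes with such probe sets. No probe set was shared between a member and another gene.

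Epithelial cells are held to each other by E-cadherin junctions and tight junctions, and mesenchymal cells are not. SNAIL, ZEB and TWIST proteins are transcription factors that bind E-box DNA, repress junction genes and favour the mesenchymal state. GRHL2 and OVOL2 are transcription factors that maintain junction genes and restrain the ZEB genes, and the ESRP proteins bind RNA and set the epithelial pattern of splicing. Mesothelium, to which the ovarian surface belongs, is known for keeping features of both states.

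The intensity of a probe set was called above background when it exceeded 46.5, or 5.54 on the log2 scale. This limit is the 95th percentile of 126 probe sets for 4 families with no expected role in ovary, namely receptors of smell, of pheromones and of bitter taste, and the keratin-associated proteins of hair. These background probe sets ranged from 7 to 125 with a median of 13, and 7 of them exceed the limit by construction. The brightest probe set of a gene stood for its level. Probe sets differ in affinity, so no single gene was ranked above another by its level. Median levels of lists are given as description only, since they carry the same limit and rest on unequal numbers of probe sets.

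By count, the factors of the mesenchymal state were mostly above background and those of the epithelial state mostly not. Among the 6 SNAIL, ZEB and TWIST genes 5 were above the limit, with Twist2 the exception. Among the 4 GRHL2, OVOL2 and ESRP genes 1 was above it, Esrp2. Snai1, counted above, and Grhl2, counted below, lay too near the limit for a firm call. The share above it was 62.8% over all named genes. Among genes with as many probe sets as each mesenchymal factor it ran from 47.3% to 91.4%, and for the epithelial factors from 47.3% to 88%. Together 6 of 10 members were above background, against 62.8% of all named genes, so the members as a whole stood close to that share. By probe set, 9 of 14 for the mesenchymal factors and 1 of 8 for the epithelial factors exceeded the limit, against 55.1% of all named probe sets. The median gene level on the log2 scale was 8.21 for the mesenchymal factors and 4.61 for the epithelial factors, with 7.06 over all named genes. With 1 array these counts have no test. If the sample was mixed, fewer cells of a type and less RNA per cell cannot be told apart.

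**Figure D1:**
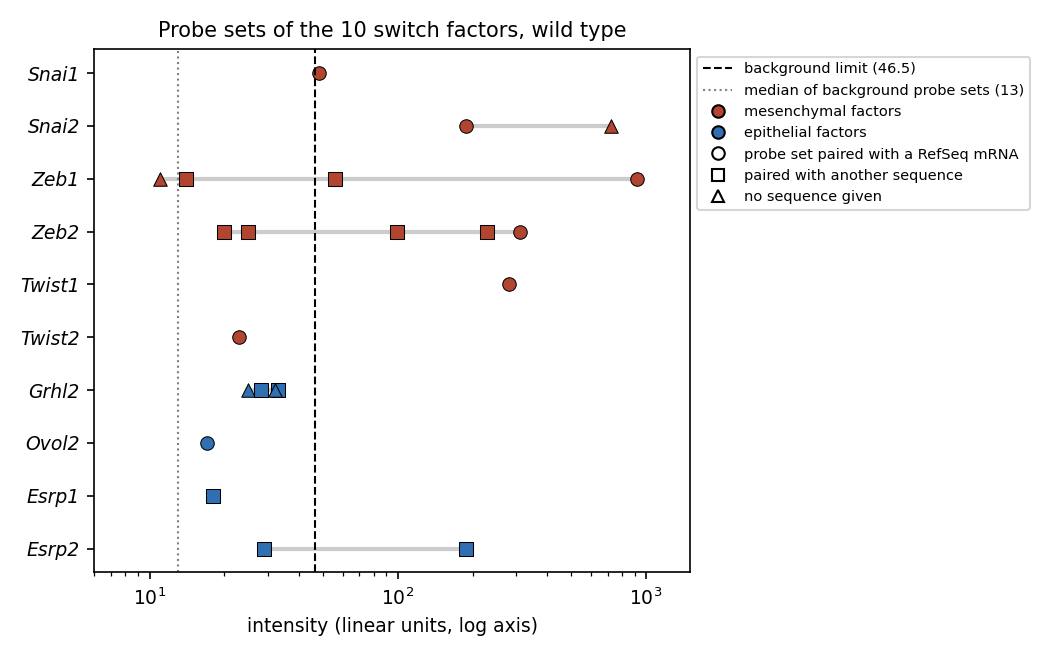
Intensity of each of the 22 probe sets of the 10 factors on a log axis, with the background limit of 46.5 (dashed) and the background median of 13 (dotted). Colour gives the state a factor favours, symbols give the kind of sequence the annotation pairs with the probe set, and grey bars join probe sets of the same gene. All probe sets of Snai2 lie right of the limit, those of Zeb1, Zeb2 and Esrp2 lie on both sides, and those of Twist2, Grhl2, Ovol2 and Esrp1 lie left of it.

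Snai1, which encodes the SNAIL repressor, lay at the limit. Its only probe set, 1448742_at, had an intensity of 48, which is 0.05 above the limit on the log2 scale. Of the 126 background probe sets 6 were as bright or brighter. This makes Snai1 the member just above the limit, and the next below was Grhl2 with 33 on its brightest probe set. Rounding of the deposited values moves a value at the limit by 0.0154 on the log2 scale, less than the 0.05 of Snai1. A limit taken at the 99th background percentile, 84.8, left Snai1 below it. The SNAIL and ZEB proteins are known to prefer the E-box CAGGTG, which reads CACCTG on the opposite strand, and SNAIL is known in human cells to bind such a site in its own promoter. The 250 bases before the start of mouse Snai1 (RefSeq, build GRCm38.p6, chr2:167537945-167538194, plus strand) are shown for this reason, with the site in capitals.
Snai1: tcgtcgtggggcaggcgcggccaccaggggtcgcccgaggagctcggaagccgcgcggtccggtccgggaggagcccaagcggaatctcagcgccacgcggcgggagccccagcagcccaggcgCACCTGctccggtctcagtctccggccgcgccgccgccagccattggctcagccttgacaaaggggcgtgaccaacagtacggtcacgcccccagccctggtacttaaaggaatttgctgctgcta
The site, CACCTG, runs from 126 to 121 bases before the start. It was the only match to the general E-box CANNTG in this window. Over all 32851 RefSeq promoters in the table, 17.2% held CAGGTG on either strand within the same 250 bases and 66.2% held CANNTG, of which CAGGTG is a special case. A match is a description of the sequence and was not tested for binding.

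Snai2, the second SNAIL repressor, also called Slug and known for its role in neural crest, was above the limit on every probe set. Probe set 1418673_at, paired with a RefSeq mRNA, had 188, and 1447643_x_at had 721. No background probe set was as bright as either. The brighter set carries the mark for probes that may match other transcripts, and without it the level of Snai2 would be 188, or 2.02 above the limit on the log2 scale.

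Zeb1, a zinc finger and homeodomain repressor of E-cadherin, had 917 on 1418926_at, the probe set paired with its RefSeq mRNA. Its other probe sets had 56 on 1443005_at, 14 on 1446127_at and 11 on 1420243_at. Thus 2 of 4 exceeded the limit, and the brightest was 83.4 times the lowest. The SD between the 4 was 2.93 on the log2 scale, against a median of 1.39 over 9010 genes with several probe sets.

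Zeb2, the paralogue of Zeb1 and also a SMAD-binding protein, had 311 on 1422748_at, its RefSeq mRNA probe set. Probe set 1456389_at had 228 and 1434298_at had 99, also above the limit. The remaining 1458941_at and 1454200_at had 25 and 20, below it. The SD between the 5 was 1.80 on the log2 scale. For both ZEB genes the probe set paired with the RefSeq mRNA was the brightest, and for Snai2 it was not. This made 2 of the 3 members with such a probe set and another kind, while the same held for 53.8% of 2173 such genes on the array.

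The TWIST genes, basic helix-loop-helix factors of mesoderm, lay on different sides of the limit. Twist1 had 280 on its only probe set, 1418733_at, which is 2.59 above the limit on the log2 scale and brighter than every background probe set. Twist2, also called Dermo1, had 23 on its only probe set, 1448925_at, and 18 of 126 background probe sets were as bright. No probe set of either gene is marked as matching other transcripts. The promoters of this paralogue pair, of which 1 transcript was above background and the other was not, are shown from RefSeq (build GRCm38.p6) as the 250 bases before each start, at chr12:33957421-33957670 for Twist1 and chr1:91801211-91801460 for Twist2, both on the plus strand. A site CAGGTG or CACCTG would be in capitals, and neither window holds one.
Twist1: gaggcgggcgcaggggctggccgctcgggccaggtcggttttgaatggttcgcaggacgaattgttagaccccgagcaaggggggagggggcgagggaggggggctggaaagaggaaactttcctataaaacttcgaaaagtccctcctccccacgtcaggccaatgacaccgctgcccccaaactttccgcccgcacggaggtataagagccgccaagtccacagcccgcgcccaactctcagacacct
Twist2: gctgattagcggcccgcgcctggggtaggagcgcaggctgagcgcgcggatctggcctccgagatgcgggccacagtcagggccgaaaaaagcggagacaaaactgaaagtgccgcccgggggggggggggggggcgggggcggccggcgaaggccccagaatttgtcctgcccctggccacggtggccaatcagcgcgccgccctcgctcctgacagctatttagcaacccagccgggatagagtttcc
Neither window matched CANNTG, which says only that these letters are not in it. GC content was 62.4% for Twist1 and 68.8% for Twist2, against a median of 52.4% over all promoters. The count of CpG was 18 for Twist1 and 23 for Twist2, against a median of 6.

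Among the epithelial factors, Grhl2 had the most probe sets and none passed. Grhl2, a grainyhead-like factor that activates E-cadherin and claudin genes, had 33 on 1427046_at, 32 on 1431877_a_at, 28 on 1452643_at and 25 on 1431878_at. These 4 values lay close together, with an SD of 0.18 on the log2 scale. The processing of the array draws low intensities together, so this closeness is not a measure of precision. Of genes with 4 probe sets on the array 88% had at least 1 above the limit, so Grhl2 was among the other 131 of 1093. Between 10 and 14 of the 126 background probe sets were as bright as the Grhl2 probe sets, so the gene lay in the upper part of background rather than at its median of 13. A limit taken at the 90th, 25.5, put Grhl2 above it, and then 2 of the 4 epithelial factors passed.

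Ovol2, a zinc finger repressor of mesenchymal genes, had 17 on its only probe set, 1449205_at, and 43 of 126 background probe sets were as bright. Its promoter is shown beside those of the mesenchymal factors as the 250 bases before the start on the minus strand (RefSeq, build GRCm38.p6, chr2:144331363-144331612), with capitals reserved for CAGGTG or CACCTG, which it does not hold.
Ovol2: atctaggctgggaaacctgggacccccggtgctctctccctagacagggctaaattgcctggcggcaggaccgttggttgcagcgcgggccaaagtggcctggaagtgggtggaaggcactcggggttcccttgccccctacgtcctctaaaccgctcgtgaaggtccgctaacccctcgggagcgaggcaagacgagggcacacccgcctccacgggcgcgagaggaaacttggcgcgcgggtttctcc
This window was also free of CANNTG and had a GC content of 65.2% and 20 CpG. Promoters of 5 members were in the table, with 8 windows in all. Among these, 1 of 8 held CAGGTG and the same 1 held CANNTG, against 17.2% and 66.2% of all promoters. The remaining windows were 4 starts of Zeb2, a pair of which overlap, with GC contents from 49.6% to 57.6%.

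The ESRP genes, paralogues that promote epithelial exons, were divided. Esrp1 had 18 on its only probe set, 1454681_at, and 34 of 126 background probe sets were as bright. Esrp2 had 188 on 1433683_at, 2.02 above the limit on the log2 scale and brighter than every background probe set. Its second probe set, 1419977_s_at, had 29, below the limit, and is marked for probes shared between transcripts. Esrp2 was thus the epithelial factor above background, on 1 of 2 probe sets.

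The number of probe sets bears on these calls, since a gene with more has more chances to pass. Of 5 members with 1 probe set 2 were above the limit, Snai1 and Twist1, against 47.3% of genes with 1 probe set. The share was 71.8% of genes with 2 probe sets, as Snai2 and Esrp2 have, 88% with 4, as Zeb1 and Grhl2 have, and 91.4% with 5, as Zeb2 has. Of the 5 members with several probe sets 3 had them on both sides of the limit, as did 46.7% of all such genes. The array's end controls bear on probe sets placed away from the end of a transcript. For Actb the control probe sets at the 3′ end, middle and 5′ end had 24792, 16886 and 16073, and for Gapdh they had 20207, 20490 and 21516. Where the members' probe sets lie along their transcripts was not analysed here.

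**Figure D2:**
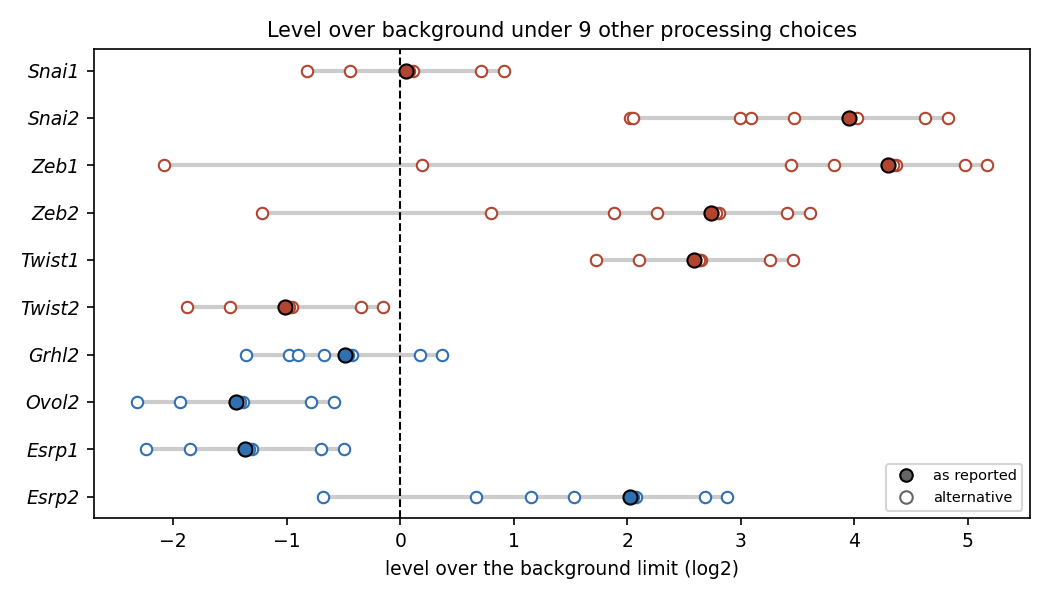
Level of each factor over the background limit on the log2 scale, as reported (filled) and under 9 other processing choices (open), with mesenchymal factors in red and epithelial factors in blue. Zero (dashed) is the limit. Snai2 and Twist1 stay right of it, Twist2, Ovol2 and Esrp1 stay left of it, and the other 5 cross it under at least 1 choice. A choice among the probe sets of a gene cannot move the level of a factor with 1 probe set.

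Relatives of the members within their families were divided, with 6 of 9 measured genes above background. This is close to the 62.8% of all named genes. Snai3, the third SNAIL gene, had 84 on 1 probe set and 21 on the other. Scrt1, a neural zinc finger relative, had 68 and 15. Those not above the limit were Scrt2, with 18 to 37 on 4 probe sets, Grhl3, an epidermal grainyhead factor, with 13, and Ovol1, the paralogue of Ovol2, with 16 and 17. Also above the limit, and named here after their values were seen, were Tfcp2 with 215, Tfcp2l1 with 1505 on 1 of 3 probe sets and Ubp1 with 409 and 1122. Grhl1, likewise named after its value was seen, had 114 on its only probe set, within the range of the background probe sets, which reach 125. By this limit, of the genes named GRHL, Grhl1 was above background and Grhl2 and Grhl3 were not, and neither measured OVOL gene was. Grhl2 changed side under 2 of 9 other processing choices, so this contrast is not firm.

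Other factors that induce a mesenchymal state were above background in 6 of 8 measured cases, against 62.8% of all named genes. Prrx1, a homeobox factor of limb and craniofacial mesenchyme, passed on 3 of 6 probe sets and reached 317. Foxc2, a forkhead factor of mesoderm and lymphatic vessels, had 98. Foxc1, its paralogue, had 13 and 33, and Gsc, a homeobox factor of the gastrula organiser, had 10. Other factors of the epithelial state were above background in 6 of 11 measured cases, against the same 62.8%. Elf3, an ETS factor of epithelia, had 69. Klf5, a Krüppel-like factor of gut and skin epithelium, had 179 on 1 of 3 probe sets. The 5 not above the limit were Ehf, with 11 to 14, Elf5, with 13 and 22, Foxa1, with 14, Tfap2c, with 10 to 19, and Trp63, with 8 to 25. Ehf and Elf5 are ETS factors of glandular epithelia, and Trp63 is the master factor of stratified epithelia.

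Genes of proteins through which the factors act were all above background in their lists, against 62.8% of all named genes. That share rises with the number of probe sets, to 88% with 4 and 91.4% with 5, so full lists are given as description only. TWIST proteins pair with E proteins, and ID proteins block that pairing. All 7 genes of this list were above the limit. Tcf3, which encodes the E proteins of the E2A locus, had 516, 167 and 55. Tcf4 passed on 5 of 6 probe sets and reached 425, and Tcf12 passed on 4 of 5 and reached 1949. The 4 ID genes had between 568 and 10600 on their brightest probe sets. All 12 measured corepressors of SNAIL or ZEB were above the limit. Ctbp1, the corepressor that ZEB proteins bind, had 2734. Kdm1a, a histone demethylase that binds SNAIL, had 1070 and 2470, and Hdac1, a histone deacetylase, had 958. All 8 genes of SNAIL turnover were above the limit. Gsk3b, the kinase that marks SNAIL for breakdown, passed on 5 of 6 probe sets and reached 1365. Btrc, the ubiquitin ligase subunit that reads this mark, passed on 2 of 5 and reached 144, and Fbxl14, another such subunit, had 497. The medians of these lists were 10.92, 10.35 and 9.20 on the log2 scale, with 7.06 over all named genes. Such widely expressed genes are used by many pathways. When a gene was represented by its lowest probe set, 4 of 7 genes of the E protein and ID list and 4 of 8 of SNAIL turnover were above the limit.

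Genes whose transcripts ESRP proteins splice were all above background, 9 of 9, against 62.8% of all named genes. Fgfr2, a growth factor receptor with an epithelial and a mesenchymal exon, had 701, 101 and 16. Cd44, a hyaluronan receptor with variable exons, had 852 and 325 on 2 of 4 probe sets. Ctnnd1, a catenin that binds cadherins, had 525 and 1189 on 2 of 3. Which exons these probe sets match was not analysed here, so the values do not tell splice forms apart. When a gene was represented by its lowest probe set, 2 of 9 were above the limit. Other splicing factors of the switch were above background in 12 of 12 cases, against the same 62.8%. Rbfox2, a factor of mesenchymal splicing, had 279 and 151 on 2 of 4 probe sets. Qk, another such factor, passed on 6 of 7 and reached 2616, and Rbm47, a factor of epithelial splicing, had 200 and 419 on 2 of 3. By their lowest probe sets, 4 of these 12 were above the limit.

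**Figure D3:**
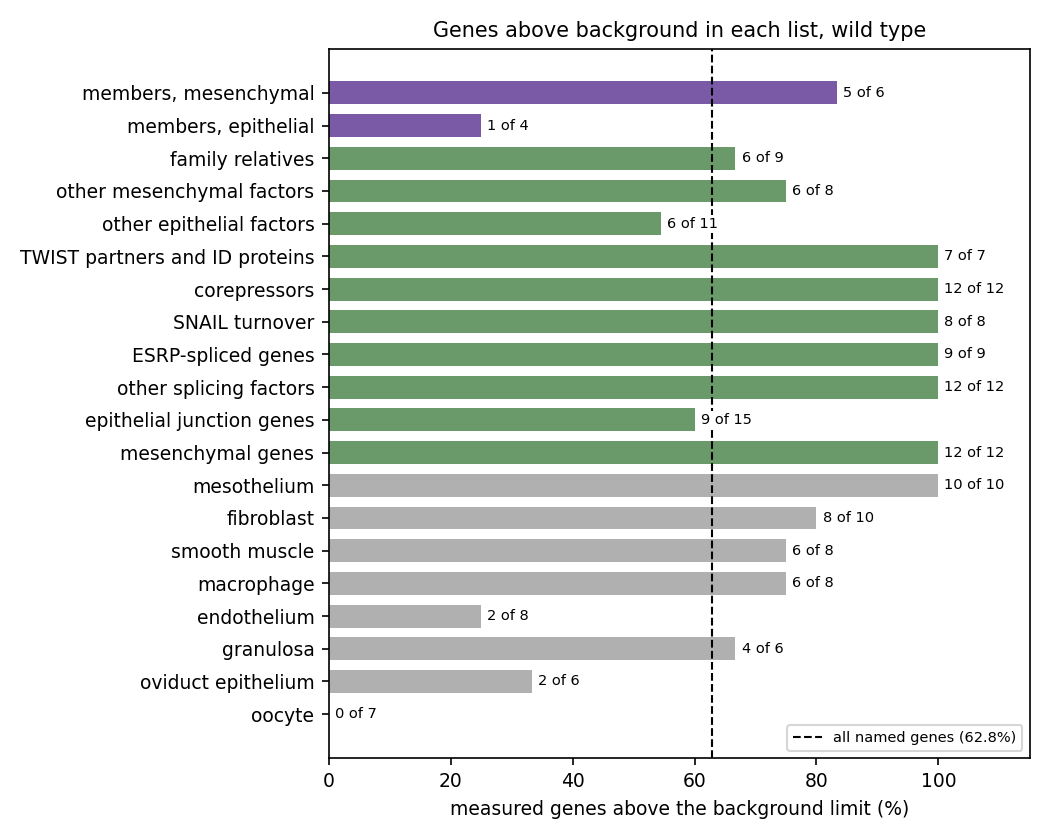
Share of measured genes above the background limit in each list, with the counts beside the bars. The factors are in purple, partner and target lists in green, cell type markers in grey, and the dashed line is the 62.8% of all named genes. The mesenchymal factors stand at 5 of 6 and the epithelial factors at 1 of 4.

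Epithelial target genes of the factors lay on both sides of the limit, and the measured mesenchymal genes all lay above it. The list held 15 epithelial junction and polarity genes, which SNAIL, ZEB or TWIST are known to repress or GRHL2 and OVOL2 to maintain. Of these 9 were above the limit, against 62.8% of all named genes, with a median level of 5.73 on the log2 scale. The count depends on the limit: it was 7 at the 99th background percentile and 13 at the 90th. Cdh1, which encodes E-cadherin, had 95, within the range of the background probe sets, which reach 125. Crb3, a polarity protein repressed by ZEB1 and SNAIL in cultured cells, had 77, 103 and 153. Epcam, an adhesion molecule of epithelia, had 158 and 921. The claudins of this list, named here after their values were seen, were divided: Cldn3 was above the limit on all 4 probe sets, with 1276 to 3923, while Cldn4 had 39 and Cldn7 had 20, below it. All 12 measured mesenchymal genes were above the limit, against the same 62.8%, with a median of 13.31 on the log2 scale. Vim, the intermediate filament vimentin, had 3 probe sets between 9036 and 15240. Cdh2, which encodes N-cadherin, had 2137 and 3597, and Fn1, the matrix protein fibronectin, had 22422 and 424.

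**Figure D4:**
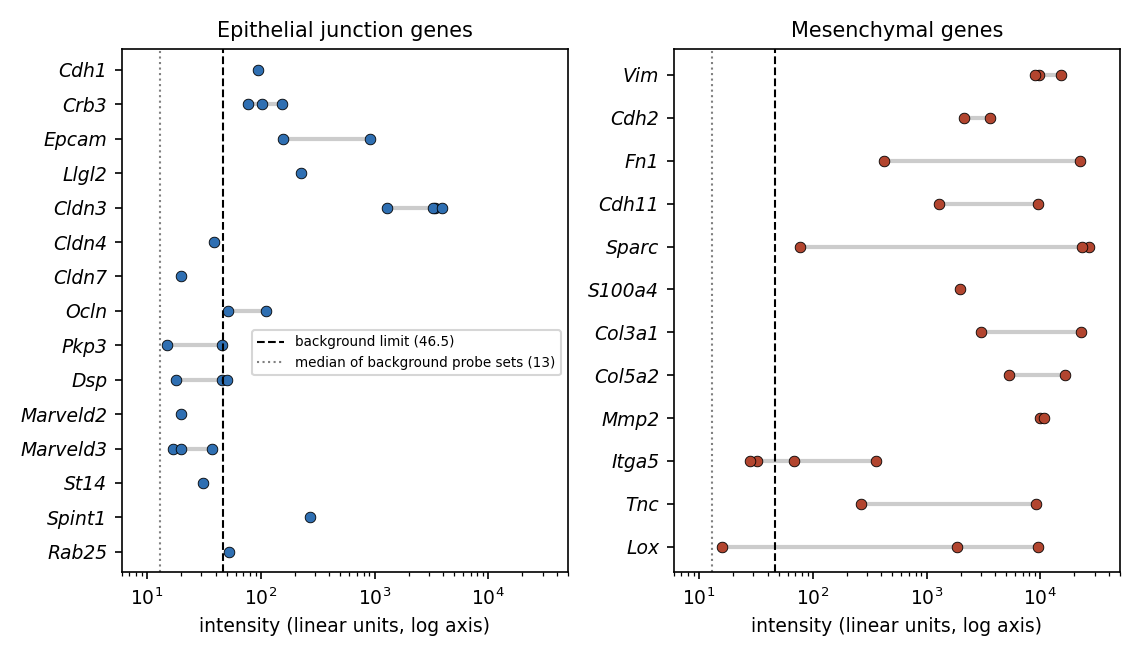
Intensity of every probe set of 15 epithelial junction genes (left) and 12 mesenchymal genes (right) on log axes, with the background limit of 46.5 (dashed) and the background median of 13 (dotted). Grey bars join probe sets of the same gene. Junction genes lie on both sides of the limit, and each mesenchymal gene has its brightest probe set right of it.

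Epcam and Crb3 were the first junction genes of the list with a promoter in the RefSeq table, and both hold the E-box that SNAIL and ZEB prefer. The 250 bases before each start are shown for build GRCm38.p6 on the plus strand, at chr17:87635729-87635978 for Epcam and chr17:57061951-57062200 for Crb3, with CAGGTG and CACCTG in capitals.
Epcam: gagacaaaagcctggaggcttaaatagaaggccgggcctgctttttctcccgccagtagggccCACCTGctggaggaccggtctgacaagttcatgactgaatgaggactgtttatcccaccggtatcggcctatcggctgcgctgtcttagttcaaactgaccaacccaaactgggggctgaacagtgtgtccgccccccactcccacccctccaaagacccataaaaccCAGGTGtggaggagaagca
Crb3: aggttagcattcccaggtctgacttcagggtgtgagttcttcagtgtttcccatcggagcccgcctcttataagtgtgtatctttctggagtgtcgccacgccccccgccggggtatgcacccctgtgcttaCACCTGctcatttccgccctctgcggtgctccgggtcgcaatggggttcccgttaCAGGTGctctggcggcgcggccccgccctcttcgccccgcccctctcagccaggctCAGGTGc
The sites of Epcam begin 187 and 19 bases before the start, and those of Crb3 begin 118, 63 and 7 bases before it. Promoters of 10 junction genes gave 14 windows, some of which overlap, and 7 of these held the site, against 17.2% of all promoters. The general E-box CANNTG was in 64.3% of the 14, against 66.2% of all. Their median GC content was 61.4% against 52.4%, and their median CpG count 12 against 6. The list was also written from genes known as targets of these factors, so the share of sites is not a finding about them. Promoters of 6 mesenchymal genes gave 7 windows, and none held CAGGTG or CACCTG. Junction genes with the site lay on both sides of the limit. Of 6 such genes 4 were above it, Crb3, Epcam, Ocln and Rab25, and Cldn4 and Cldn7 were not. Of the 4 without the site 3 were above it. Several of these calls were low. Rab25 had 53, Ocln 51 and 111, and Dsp, without the site and named after its value was seen, at most 50. These lay within the range of the background probe sets, which reach 125. The others above the limit exceeded that range on their brightest probe sets. These counts are of sequence only, and repression of these genes was not tested.

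The listed markers of the labelled cell type were all above background, against 62.8% of all named genes. The list was chosen with earlier results of these data known, so its count is not a check of the label. All 10 markers of mesothelium were above the limit, with levels from 2047 to 20836, among them Krt8, a simple-epithelial keratin, with 3172 to 4573, Upk3b, a mesothelial uroplakin, with 14848 and 20836, and Wt1, a factor of coelomic epithelium, with 4589. Some markers of other cell types known to express SNAIL, ZEB or TWIST genes were above the limit too. For the counts that follow, the share was 62.8% over all named genes and 71.8% over genes with 2 probe sets. The counts alone thus do not show that such cells were present. Of 10 fibroblast markers 8 were above the limit, with levels over the list from 13 to 29972. Decorin (Dcn), a matrix proteoglycan, reached 15048, the receptor gene Pdgfra reached 916 and Lum, another matrix proteoglycan, 307, while Dpt at 13 and Fap at 36 were not above it. Of 8 smooth muscle and pericyte markers 6 were, with levels from 16 to 23141. The contractile genes Acta2 and Myh11 reached 23141 and 764 and the filament gene Des 4105, while Myocd and Rgs5 had at most 17 and 16. Of 8 macrophage markers 6 were, with levels from 16 to 2142. The receptor gene Csf1r reached 527 and the complement gene C1qa 244, Adgre1 lay at the limit with 47, and Mrc1 at 16 and Cx3cr1 at most 40 were below it. Endothelial markers had 2 of 8 above the limit, Kdr with 1813 and Egfl7 with up to 212, while Pecam1, Cdh5 and Tek had at most 14, 23 and 21. Whether these transcripts came from other cells or from the surface cells themselves cannot be told apart here. The part of any such cells in the levels of the SNAIL, ZEB and TWIST genes was not tested.

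Columnar epithelia express GRHL2 and ESRP1, and the oviduct epithelium lies next to the ovary. Of its 6 measured markers 2 were above the limit, against 62.8% of all named genes. These were Pax8 with 107 on 1 of 2 probe sets and Wt1, which is also a mesothelial marker. Ovgp1, a secreted oviduct glycoprotein, stood at 35, and Foxj1, a factor of ciliated cells, at 20. Of 6 measured granulosa cell markers 4 were above the limit, against the same 62.8%. Among these 4 were the hormone genes Inha with 1438 and Amh with 58, while Fshr at 34 and Nr5a2 at most 43 were below the limit. None of 7 oocyte markers were above the limit, with levels from 11 to 42. The egg coat gene Zp3 had 20, and the oocyte growth factor genes Gdf9 and Bmp15 had 42 and at most 18. Among 11 measured genes of other organs 3 passed, Ins2 with 100, Pomc with 66 and Prm1 with 57, while Alb had 18, so intensities up to 100 also occurred for genes with no expected role here. Snai1 at 48 lay within that range, and Snai2, Zeb1, Zeb2, Twist1 and Esrp2 lay above it on their brightest probe sets. Other genes counted above the limit also lay within that range. Among them were Foxc2 at 98, Cdh1 at 95, Snai3 at 84, Elf3 at 69, Scrt1 at 68 and Amh at 58.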

How the data were processed

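Per the labels' protocols, 5 ug of total RNA gave the biotin-labelled cRNA. The deposited table gives an intensity for each of 45101 probe sets, all whole numbers from 6 to 32341 with a median of 41. Per the submitters' processing notes the tools were affy and RMA, which corrects background, normalizes between arrays and summarises probes. Versions, the arrays normalized together and the step to whole linear numbers were not given in the sources used here. Low intensities are drawn together by RMA: it shrinks their differences.

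Intensities were log2-transformed, and probe sets took gene names from the platform annotation, leaving out 932 with several symbols, 9160 without one and 64 controls. All 10 members' gene numbers matched the mouse RefSeq table (GRCm38.p6). Promoters came from RefSeq. The members and lists were chosen with earlier results of these data known. Named in the text are all members, the first 3 measured genes of each list and the genes that alone were above or below the limit in their list (5 or fewer), with a few more, marked in the text as named after their values were seen. Listed genes without a probe set of their own were not analysed here. The limit, the probe set that stands for a gene and the probe sets used were varied. The code of the call rule was run on simulated intensities drawn from the background probe sets. Raised values were planted in genes of 1 probe set, and these values largely set the outcome. The run checks the code, and it does not test the limit or the use of the brightest probe set. An array has no read depth, and 1 array leaves the precision unknown. Figures used matplotlib 3.10.9 and computations Python 3.11.15, pandas 2.3.3 and NumPy 2.4.6.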

Additional observations from a re-analysis of the deposited data

Results flagged for a closer look

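Loxl2, a matrix cross-linking enzyme that also binds SNAIL, was in the list of mesenchymal genes and entered no count, because its probe sets are paired with Gm21451 as well. These shared probe sets had intensities of 12935 and 958, both above the background limit of 46.5. They are given as a signal outside the counts, and which of the 2 genes it comes from was not tested.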

How the results depend on the processing

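With the lowest probe set of a gene in place of the brightest, 3 of the 10 members were above the limit instead of 6, and 7228 of all genes instead of 11432. Zeb1 then lay at -2.08, Zeb2 at -1.22 and Esrp2 at -0.68 relative to the limit on the log2 scale, each below it by construction, since their probe sets lie on both sides. Snai1 was below a limit set at the 99th background percentile (-0.82) and, by less, with genes restricted to other organs as background (-0.44). Grhl2 was above a limit set at the 90th (0.37) and with olfactory and vomeronasal receptors as background (0.17), limits of 25.5 and 29.3. Snai2, Twist1, Twist2, Ovol2 and Esrp1 kept their side of the limit under all 9 alternatives. Except for Snai2 these have 1 unmarked probe set each, so not every alternative could change their call. Taking the mean or lowest probe set or adding shared probe sets left their levels as they were by construction. Leaving out marked probe sets moved only the limit for them. The other lists' counts numbered 171 over these alternatives, and 152 stayed within 1.5 times the reported count. With the lowest probe set, counts moved by more for family relatives (3 of 9), other mesenchymal factors (2 of 8), E and ID proteins (4 of 7), SNAIL turnover (4 of 8), ESRP-spliced genes (2 of 9), other splicing factors (4 of 12), smooth muscle (3 of 8), oviduct (1 of 6) and other organs (1 of 11). Other moves were those of epithelial factors (3 of 11) at the 99th percentile, of oocyte markers (2 of 7) at the 90th and with olfactory and vomeronasal receptors, of endothelium (1 gene) without marked probe sets, of oviduct (1 gene) without these or with the mean, and of other organs, between 1 and 6 genes. No paired analysis was possible because there was 1 sample. An array limits precision through signal over background, and Snai1 and Grhl2 are too near the limit for a firm call.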
